A study of Drosophila melanogaster with 6 samples.

Results

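The loci described here are the expressed members of a large class of fly genes whose symbols are CR followed by a number, the FlyBase designation for genes without an annotated protein. Members were chosen by their symbol, which had to stand alone in its row, and by their level: the larger FPKM of the 2 genotypes compared, a read count scaled to transcript length and library size, had to be at least 1. Of 2328 such loci in a table of 16596, 234 met this rule. They stood among 6265 loci of every kind with that level. RNA had been sequenced from hand-sorted stage 5 embryos of Drosophila melanogaster, at the cellular blastoderm, in 3 samples per genotype. The zldZnF2 embryos were laid by females homozygous for an allele made by Cas9 genome engineering, in which a cysteine of the second zinc finger (ZnF2) of Zelda (ZLD) is changed to serine. The w1118 embryos carried wild-type maternal zld. Embryos of zldZnF2 mothers thus received mutant maternal product, and the labels give neither the genotype of the fathers nor the number of embryos in a sample.

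ZLD is the pioneer transcription factor that opens chromatin and activates the zygotic genome during the maternal-to-zygotic transition (MZT), when maternally loaded RNAs are cleared and the embryo begins its own transcription. Noncoding transcripts of this period fall into several classes. Long noncoding RNAs (lncRNAs) are transcribed from their own promoters and often lie near developmental genes. Antisense RNAs run across the exons of a gene on the other strand. Other noncoding transcripts are cut into microRNAs or, where they fold into long hairpins, into endogenous small interfering RNAs. The libraries were made from polyadenylated RNA with a kit that does not mark strand, so reads from an antisense RNA and from the exons it overlaps cannot be told apart by strand.

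The deposited table gives 1 FPKM per genotype, computed by the authors over all 3 replicates. No value per sample, spread, depth or interval can therefore be given, and no test across samples could be run on these values. The authors' own test results were not used, so no difference below is set against replicate error. Each pair of values is the authors' pooled FPKM in zldZnF2 and then in w1118. Ratios are log2 of zldZnF2 over w1118 after 1 FPKM was added to each value, which shrinks the ratios of low loci. Loci are called higher or lower in zldZnF2 where this ratio reached 2-fold. In whole embryos, fewer cells with a transcript and less of it per cell cannot be told apart.

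Noncoding loci were sparse in these embryos and mostly low. On the 4 large autosomal arms, 234 of 1976 CR loci (11.8%) reached 1 FPKM in either genotype, against 6031 of 11904 other loci (50.7%). A further 753 had a value above 0 but under 1, and 989 were listed at 0 in both genotypes. The 304 CR loci on the X, the 27 on chromosome 4 and the 21 on the Y were all listed at 0 in both genotypes, as was every other locus there, so these chromosomes are not described. The expressed share was 7.41% on 2L, with 44 loci, and 13.5% on 2R, with 53. It was 15.5% on 3L, with 80 loci, and 12% on 3R, with 57. A further 120 rows pooled a CR symbol with other genes, 51 of them at 1 FPKM or more, and these are not included.

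The annotation divided the 234 loci into 114 lncRNAs, 101 antisense RNAs, 15 pseudogenes, 2 hairpin RNAs, 1 small noncoding RNA (CR43603) and 1 gene now annotated as protein-coding (CR43051, current name CG43051). They were short, with a median exonic length of 732 bases and a range of 186 to 6039. In 139 of them (59.4%) all exons formed 1 uninterrupted block. Overlap with other genes was common: 135 shared exon bases with another gene, 29 overlapped one only outside its exons and 70 overlapped none.

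Levels were concentrated at the minimum. The larger of the 2 values lay between 1 and 2 FPKM at 87 loci (37.2%), against 8.56% of the other expressed loci, and it reached 10 FPKM at 30 (12.8%), against 69.8%. At 125 loci both genotypes reached 1 FPKM, at 61 zldZnF2 alone did, and at 48 w1118 alone did. Loci of the last 2 sets passed the rule only through the genotype in which they were higher, so their difference is partly fixed by the rule. Near the threshold, 18 loci had a larger value of 1 to 1.1 FPKM and 11 CR loci just missed it at 0.9 to 1. CR44899 (1.01 and 0.0280 FPKM), CR45894 (1.02 and 0.248) and CR45916 (0.761 and 1.03) lay just inside. CR44642 (0.364 and 0.996), CR44478 (0.279 and 0.994) and CR43252 (0.976 in zldZnF2 and listed at 0 in w1118) lay just outside.

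The total of all members was 2294 FPKM in zldZnF2 and 1990 in w1118, or 0.295% and 0.251% of the FPKM of all loci. Without the most abundant locus, CR43887, the order turned, with 1159 FPKM in zldZnF2 and 1183 in w1118. CR43887 alone made 49.5% of the member total in zldZnF2 and 40.6% in w1118. This lncRNA of 527 bases and a single exon lies on the plus strand of 3L from 11693135 to 11693661 (dm6) and overlaps no gene. It had 1134.86 FPKM in zldZnF2 and 807.5 FPKM in w1118, a log2 ratio of 0.49, and ranked 110 among all loci in zldZnF2 and 147 in w1118. Its neighbour Dph1, an enzyme of diphthamide synthesis 218 bases away on the other strand, had 149.7 and 100.6 FPKM in the same order.

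The next most abundant loci were far below it, and most of them differed little between genotypes. The pseudogene CR14033, which shares 158 exon bases with the BMP receptor gene tkv, had 119.2 FPKM in zldZnF2 and 95.7 in w1118. CR31429, antisense to neur, the ubiquitin ligase of Notch ligand signalling, had 91.9 and 90.05 FPKM. The antisense RNA CR45275 had 60.0 and 57.9 FPKM. The lncRNA CR43432, now named marge, lies 586 bases from the Bearded-family gene Ocho and had 53.1 and 67.3 FPKM. Ratios of these loci stayed between -0.34 and 0.31 on the log2 scale. The antisense RNAs CR45865, with 41.0 and 36.6 FPKM, and CR43460, with 23.7 and 22.2 FPKM, were of the same kind. Larger gaps were seen at 3 abundant loci that were lower in zldZnF2 by value. The lncRNA CR30055, within the corepressor gene Sin3A, had 23.4 FPKM in zldZnF2 and 43.3 in w1118 (log2 -0.86). CR44275, antisense to the neural repressor gene dpn, had 21.7 and 43.7 FPKM (-0.98). It was just within 2-fold with 1 FPKM added and just past it with none added (-1.01). The hairpin RNA CR18854 had 23.0 and 63.4 FPKM (-1.43). With 1 FPKM added, it was the only one of the 10 most abundant loci to pass 2-fold.

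**Figure D1:**
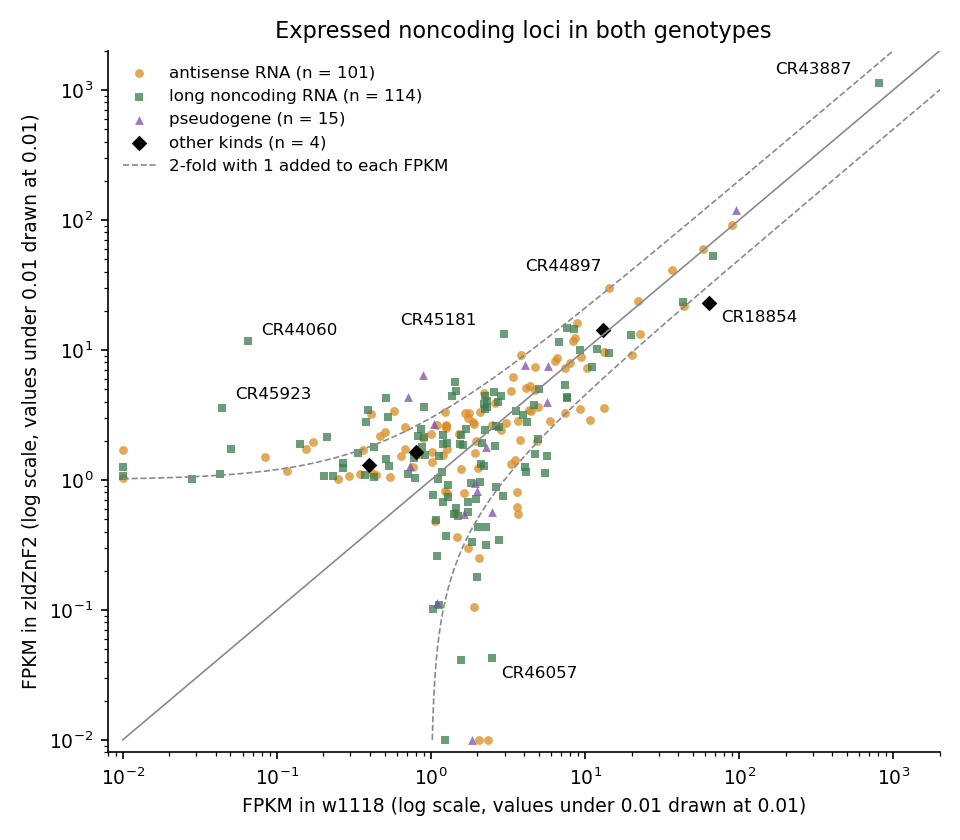
FPKM of the 234 expressed noncoding loci in zldZnF2 (vertical, log scale) against w1118 (horizontal, log scale), coloured by annotated kind, with 1 point per locus and 1 pooled value per genotype. The solid line marks equal values and the dashed lines the 2-fold limits with 1 FPKM added, which bend away at low levels. CR43887 stands far above the rest at 1134.86 and 807.5 FPKM, and most other points lie under 10 FPKM.

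Past 2-fold, 31 of the 234 loci (13.2%) were higher in zldZnF2 and 30 (12.8%) were lower. Over all 6265 loci with the same minimum, 9.82% were higher and 8.16% were lower. The members thus differed about equally often in both directions. Their median log2 ratio was 0.18, against -0.00 over all loci, and 130 (55.6%) had a ratio above 0. This median was 0.072 among loci at 1 FPKM or more in both genotypes, and it changed sign to -0.062 without members that overlap another gene. Since most members are low, the shares were also set side by side within level bins. Among members of 1 to 2 FPKM, 11.5% were higher and 8.05% lower, against 8.29% and 11.6% of all loci in that bin. At 2 to 5 FPKM the shares were 16.1% and 17.2% of 93 members, against 16.7% and 13.8% of all loci. At 5 FPKM or more they were 11.1% and 13.0% of 54 members, against 8.98% and 6.88% of all loci. With no replicate values, none of these gaps can be tested. Among the 125 loci at 1 FPKM or more in both genotypes, 6 (4.8%) were higher and 10 (8%) lower, against 8.27% and 6.06% of all loci under that rule. A smaller pseudocount of 0.1 gave 63 members higher (26.9%) and 55 lower (23.5%), against 14.6% and 10.7% of all loci.

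**Figure D2:**
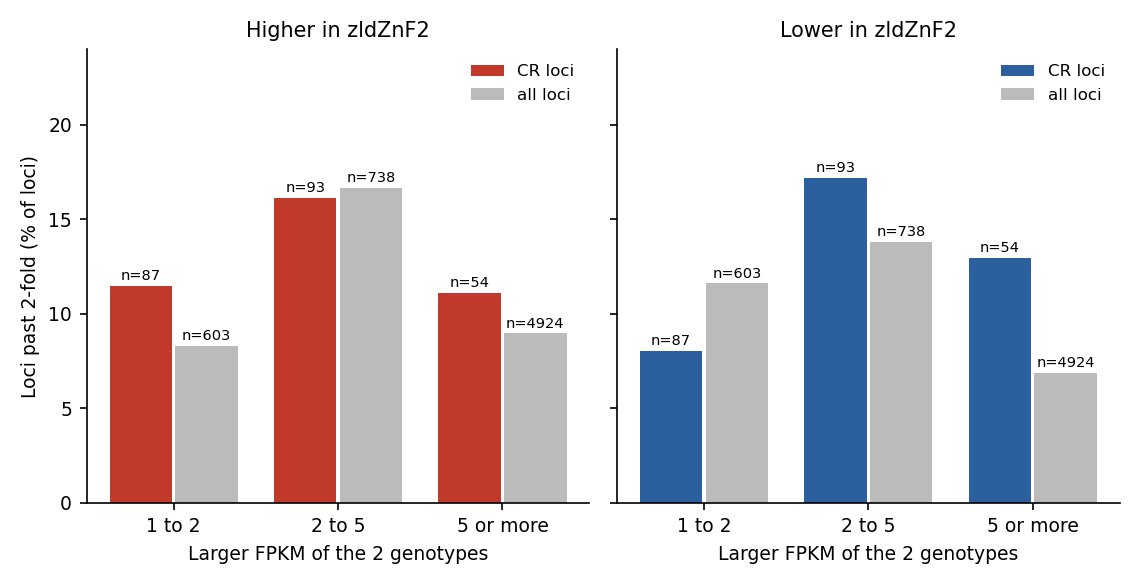
Share of loci (%) past 2-fold higher (left panel) or lower (right panel) in zldZnF2, by the larger FPKM of the 2 genotypes, with the noncoding CR loci as coloured bars left of all loci as grey bars and the number of loci above each bar. The bars start at 0. At 5 FPKM or more the noncoding loci reach 11.1% higher and 13.0% lower, against 8.98% and 6.88% of all loci.

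The largest ratio belonged to CR44060, a single-exon lncRNA of 462 bases on the plus strand of 2L from 850702 to 851163. It had 11.6 FPKM in zldZnF2 and 0.0654 FPKM in w1118 (log2 3.57). Of its exon bases, 80.1% are shared with exons of drongo, a gene on the other strand that encodes an ArfGAP-domain protein, which had 41.6 FPKM in zldZnF2 and 33.8 in w1118 (0.30). CR45923, now named dntRL, a single-exon lncRNA on 2R from 4621118 to 4622481 that overlaps an annotated transposable element, came next. It had 3.59 FPKM in zldZnF2 and 0.0444 in w1118 (2.14). The pseudogene CR43975 had 6.37 and 0.889 FPKM (1.96). CR45181, near the centromere-proximal end of 3L, was the most abundant locus with a ratio of this size, with 13.3 FPKM in zldZnF2 and 2.97 in w1118 (1.85). These loci were well above 1 FPKM in zldZnF2 and, apart from CR45181, below it in w1118.

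The remaining largest ratios were of loci between 1.70 and 5.71 FPKM in zldZnF2. The lncRNA CR44268, which lies over CG12567 on the other strand, had 4.24 FPKM in zldZnF2 and 0.511 in w1118, while CG12567 had 76.5 and 143.1 FPKM. CR43144, beside the ubiquitin ligase scaffold gene Cul2, had 3.43 and 0.388 FPKM. The pseudogene CR18217 had 4.33 and 0.714 FPKM. The antisense RNA CR45892 had 3.22 and 0.406 FPKM, and DEF8 on the other strand had 8.69 and 4.0. CR44046 had 3.38 and 0.574 FPKM, and the lncRNA CR44564 had 2.78 and 0.378. CR45801, antisense to the ubiquinone synthesis gene Pdss2, had 1.70 FPKM in zldZnF2 and 5.45e-07 in w1118. CR44317 was the only one of these 8 loci above 1 FPKM in both genotypes, with 5.71 FPKM in zldZnF2 and 1.43 in w1118. Its nearest gene, the serotonin receptor gene 5-HT2A, lies 13121 bases away and had 6.95 and 0.799 FPKM (2.14).

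Of the lower loci, CR46057 had the smallest ratio (-1.75). It lies within the cell cycle transcription factor gene E2f1, outside its exons, on 3R from 21646301 to 21646603. It had 0.0430 FPKM in zldZnF2 and 2.5 in w1118, while E2f1 had 48.3 and 56.8 FPKM. CR44049, antisense to the zinc finger protein gene woc, was at 1.71e-06 FPKM in zldZnF2 and 2.34 FPKM in w1118 (-1.74), and woc had 63.0 and 46.0 FPKM. CR44155, antisense to the sodium channel gene rpk, was lower at a measurable level in both genotypes, with 3.59 FPKM in zldZnF2 and 13.2 in w1118 (-1.63). CR45940, a lncRNA inside the Wnt antagonist gene nkd, had 1.13 and 5.47 FPKM (-1.60). Its host differed in the other direction, with 26.6 FPKM in zldZnF2 and 10.9 in w1118 (1.22). The antisense RNA CR46081 had 2.91 and 10.7 FPKM (-1.58), and CG4338, which covers all of its exon bases on the other strand, had 30.4 and 34.1.

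The other lowest ratios were of loci under 1 FPKM in zldZnF2, apart from CR18854 and the lncRNA CR43242, which had 1.53 FPKM in zldZnF2 and 5.65 in w1118. CR45927 had 0.0015 and 2.05 FPKM, CR43767 had 0.546 and 3.69, CR44147 had 0.620 and 3.60, and CR45390 had 0.344 and 2.77 in the same order. At 0 in zldZnF2 were the pseudogene CR30029, with 1.85 FPKM in w1118, and the lncRNA CR45979, with 1.24. At 0 in w1118 was the lncRNA CR45450, with 1.25 FPKM in zldZnF2. In all, 8 members were under 0.01 FPKM in one genotype, these 3 included, and 5 of the 8 share exon bases with another gene.

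**Figure D3:**
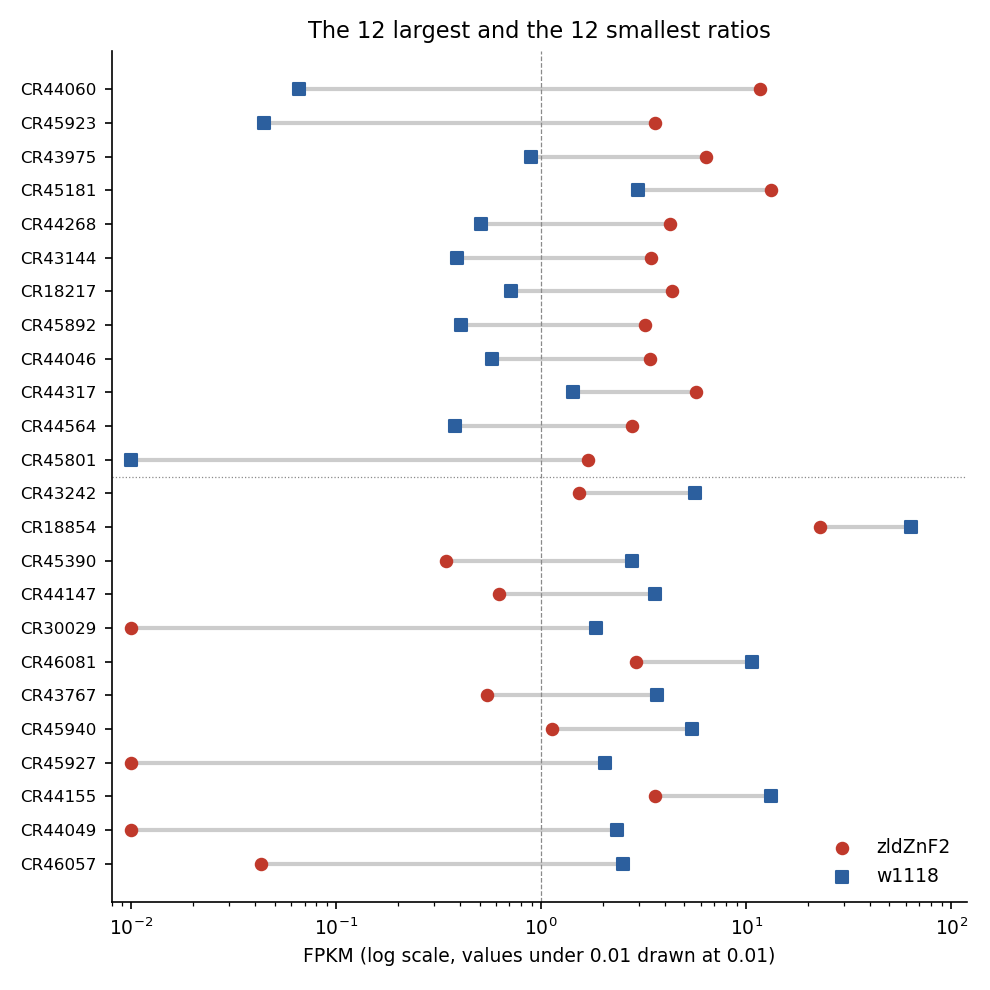
FPKM (log scale) of the loci with the 12 largest ratios (upper block) and the 12 smallest ratios (lower block), with zldZnF2 as circles, w1118 as squares and a bar joining the pair. Values under 0.01 are drawn at 0.01, and the dashed line marks 1 FPKM. CR44060 spans 11.6 and 0.0654 FPKM, and the lower loci at the highest level are CR18854 at 23.0 and 63.4 FPKM and CR44155 at 3.59 and 13.2.

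Members with several exon blocks and members with 1 differed in direction, a pattern looked for after the values were seen. Of the 95 loci with 2 or more exon blocks, 17 (17.9%) were higher in zldZnF2 and 7 (7.37%) lower. Their median log2 ratio was 0.36, and 63 (66.3%) lay above 0. Among those at 1 FPKM or more in both genotypes, however, 4 were higher and 5 lower, so the direction rests on loci that passed the rule through 1 genotype only. Of the 139 loci with 1 block, 14 (10.1%) were higher and 23 (16.5%) lower, with a median of -0.02. At 1 FPKM or more in both genotypes, 2 of these were higher and 5 lower. Split by kind, the medians of these same loci were ordered alike in both main kinds, which adds no separate support. Among lncRNAs the median was 0.38 in the 43 loci with 2 or more blocks and -0.10 in the 71 with 1, and among antisense RNAs it was 0.37 in 42 and 0.04 in 59. Other expressed loci with a lone symbol had medians of -0.01 in 4985 loci with 2 or more blocks, where 9.53% were higher and 7.54% lower, and 0.04 in 679 with 1, where 11.5% were higher and 10.9% lower. The members at 5 FPKM or more did not show the split: both groups had 3 higher loci, and 4 of 23 loci with 2 or more blocks and 3 of 31 with 1 block were lower. The part of level in this pattern was not tested.

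**Figure D4:**
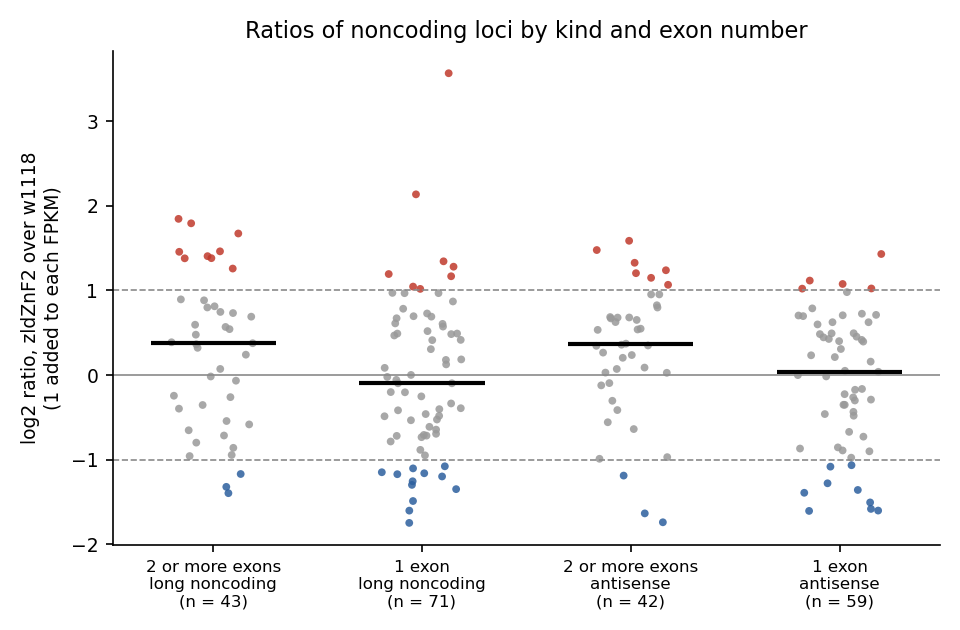
Log2 ratio of zldZnF2 over w1118, with 1 FPKM added, for each lncRNA and antisense RNA by its number of exon blocks. Each point is a locus, coloured when past 2-fold (dashed lines), placed with a random sideways offset, and the black bars are medians. The medians are 0.38 and -0.10 for lncRNAs with 2 or more blocks and with 1 block, and 0.37 and 0.04 for antisense RNAs.

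The following counts stand beside 9.82% higher and 8.16% lower over all loci. By kind, 17 of 114 lncRNAs were higher and 15 lower, and 12 of 101 antisense RNAs were higher and 12 lower. Of the 15 pseudogenes 2 were higher, CR43975 and CR18217, and 2 were lower, CR30029 and CR45716 (0.570 FPKM in zldZnF2 and 2.48 in w1118). By position, 12 of the 70 loci that overlap no gene were higher and 9 lower. The 29 that overlap a gene only outside its exons had 2 higher and 6 lower, and the 135 that share exon bases had 17 and 15. Of 11 members that overlap an annotated transposable element, 4 were higher, CR45923, CR44317, CR43870 and CR42646, and 1 was lower, CR46064.

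Antisense RNAs were compared with the gene on the other strand, where that gene reached 1 FPKM in either genotype, which held for 94 pairs. The antisense member was mostly the rarer partner. Its median larger value was 3.26 FPKM against 33.9 FPKM for the other gene, which exceeded it in both genotypes in 79 pairs. This was not particular to antisense RNAs. In 57 members that overlap no gene and have an expressed nearest gene, the medians were 2.48 FPKM and 46.4 FPKM for that gene. The ratios of both partners had the same sign in 58 of 94 pairs. Of 10 antisense RNAs that were higher, 2 had a partner that was also higher and 1 a partner that was lower. Of 12 that were lower, no partner passed 2-fold in either direction. Over all expressed loci, 9.82% were higher and 8.16% lower. Among 87 members of any kind within 2-fold that share exon bases with an expressed gene, 4 had a partner that was higher and 5 one that was lower. Whether antisense RNAs and their partners differed together was not tested. Since the reads carry no strand, the division of reads within a pair is that of the authors' counting.

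In 2 pairs both partners were higher past 2-fold. CR44897 lies across robo2, a receptor for the axon guidance ligand Slit, and shares 1422 exon bases with it, on 2L from 1381211 to 1382796. It had 29.9 FPKM in zldZnF2 and 14.2 in w1118 (1.02). The locus of robo2, which pools the noncoding gene CR44898, had 45.1 and 18.5 (1.24), so these values are not of robo2 alone. CR31514 had 2.54 and 0.679 FPKM (1.08), and its partner CG12947 had 7.40 and 1.84 (1.57). In the opposite case, CR31912 had 1.73 FPKM in zldZnF2 and 0.155 in w1118 (1.24), and its partner CG9171 had 4.81 and 12.4 (-1.20). CR46020, antisense to the histone methyltransferase gene trx, had 3.27 and 1.77 FPKM (0.62), and trx had 20.9 and 9.56 (1.05). CR44020, antisense to the germ plasm gene osk, was the more abundant partner, with 5.23 FPKM in zldZnF2 and 4.41 in w1118, against 1.61 and 2.66 for osk.

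**Figure D5:**
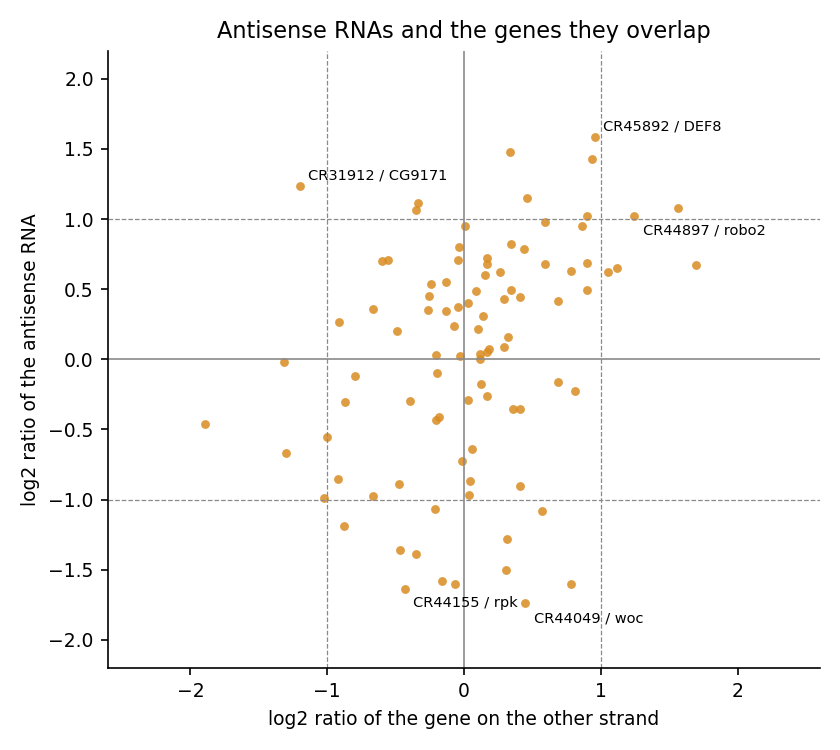
Log2 ratio of each antisense RNA (vertical) against that of the gene it overlaps on the other strand (horizontal), both zldZnF2 over w1118 with 1 FPKM added, for the 94 pairs whose other gene reaches 1 FPKM. Dashed lines mark 2-fold. CR44897 with the pooled locus of robo2 (1.02 and 1.24) lies past both limits, while the lower antisense RNAs CR44049 and CR44155 lie over genes within 2-fold.

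Transcripts that carry small RNA genes were of interest because microRNAs of the early embryo take part in the clearance of maternal RNA. CR44504 is the primary transcript of the miR-309 cluster, a zygotic transcript known to depend on ZLD and to direct the decay of maternal mRNAs. It runs over 2203 bases on the minus strand of 2R from 19659645 to 19661847 and holds 8 microRNA genes, mir-309, mir-3, mir-286, mir-4, mir-5, mir-6-1, mir-6-2 and mir-6-3. It had 14.4 FPKM in zldZnF2 and 8.53 in w1118 (log2 0.69), within 2-fold. CR31044 holds mir-279 and mir-996, which are known for roles in the nervous system, and had 3.50 and 2.25 FPKM. CR43651, the host of the cell death and metabolism regulator mir-14, had 3.97 and 2.73 FPKM. CR45916, the host of mir-9a, which restrains sensory organ formation, was the only one of the 5 small RNA hosts that was not above its w1118 value. CR43051, which holds a small nucleolar RNA (snoRNA) gene, had 1.31 and 0.396 FPKM. Of these 5 hosts 4 had a ratio above 0 and none passed 2-fold. A ratio above 0 was found at 49.6% of all expressed loci and at 55.6% of all members. CR43051 passed the rule through zldZnF2 only, and CR45916 through w1118 only. The values are of polyadenylated host transcripts and not of mature microRNAs.

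The hairpin RNAs differed from each other. CR18854, a known source of endogenous small interfering RNAs, lies on the minus strand of 2L from 9787294 to 9790745 and was lower (23.0 FPKM in zldZnF2 and 63.4 in w1118). It shares 1019 exon bases with the inositol kinase gene IP3K1, which had 3.79 and 1.48 FPKM, a difference in the other direction (0.95). CR32205 on 3L had 14.2 FPKM in zldZnF2 and 13.1 in w1118 (0.10).

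Several members lie beside genes that pattern the embryo. Around the homeotic gene Antp, which had 7.18 FPKM in zldZnF2 and 0.645 in w1118 (2.31), 3 lncRNAs had it as their nearest gene. CR45899, whose end is 1264 bases from Antp on the other strand, had 3.63 FPKM in zldZnF2 and 0.906 in w1118 (1.28). CR45559 had 10.2 and 11.9 FPKM (-0.20), and CR44931 had 2.05 and 4.92 (-0.96). Loci beside one gene thus lay on both sides of 0. CR45900, in the same complex and 5132 bases from the pair-rule gene ftz, had 4.04 and 2.30 FPKM (0.61), and ftz had 211.2 and 108.6 (0.95). Beside other developmental genes the signs did not always match. CR45389 had a ratio of -0.72 and its nearest gene term 0.76, and CR44731 had -0.64 and its nearest gene noc 0.63.

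Near the knirps-family gene knrl, which had 18.8 FPKM in zldZnF2 and 6.75 in w1118 (1.35), CR44684 had 1.11 FPKM in zldZnF2 and 0.0429 in w1118 (1.02). It is 1 of 4 members in a stretch of under 10 kb there, which also holds CR44681, with 0.177 FPKM in zldZnF2 and 2.00 in w1118 (-1.35). In all, 63 members fell into 27 groups with gaps of at most 20 kb. In the group of CR44564 and CR44563 both members were higher, and in that of CR45396 and CR45397 both were lower. Each of these members passed the rule through 1 genotype only, so their direction is partly fixed by the rule. In another group CR44719 was higher and CR44718, which overlaps it, was lower. Among members that overlap no gene and whose nearest gene was expressed, 12 were higher, of which 4 had a nearest gene that was also higher and 0 one that was lower. Of the 7 lower ones, 0 had a nearest gene that was higher and 2 one that was lower. Of the 38 within 2-fold, 7 had a nearest gene that was higher and 2 one that was lower. Over all expressed loci, 9.82% were higher and 8.16% lower. Some genes, such as CG6479, were nearest to more than 1 member. Of the 4 higher members with a higher nearest gene, CR45899 and CR44684 passed the rule through zldZnF2 only. Whether members and their nearest genes differed together was not tested.

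Noncoding genes with other symbols give a scale for these values. The heat shock RNA gene Hsromega had 54.5 FPKM in zldZnF2 and 52.2 in w1118. In the Bithorax complex, bxd had 14.9 and 11.6 FPKM and iab-8 had 1.86 and 0.889. Hosts of snoRNAs were above their w1118 values at each locus named for one alone: Uhg1 had 18.2 and 12.8 FPKM, Uhg4 17.8 and 9.07, Uhg5 39.0 and 33.1, and Uhg8 3.82 and 2.64. The locus of Uhg2, which pools a snoRNA, had 84.9 and 37.8 FPKM (1.15), the only one of these genes past 2-fold. Other pooled loci were that of Uhg3 with snoRNAs, at 57.4 and 28.4 FPKM (0.99), and that of Uhg7 with the ribosomal protein gene RpL23A, at 3036 and 3246 FPKM (-0.10). The nervous system RNA gene noe had 0.915 and 1.11 FPKM. The dosage compensation RNA genes roX1 and roX2 are on the X and were listed at 0, and yar, flam and sphinx were as well. Among short RNA genes with a symbol alone in their row, 41 of 216 snoRNA, 10 of 30 snRNA, 2 of 112 mir and 0 of 267 tRNA loci reached 1 FPKM. The libraries were of polyadenylated RNA, so these counts need not reflect the short RNAs themselves.

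Markers of the labelled stage were present in both genotypes. All 10 blastoderm genes of a marker list were expressed and none passed 2-fold, with summed levels of 7402 FPKM in zldZnF2 and 6943 in w1118. Of 6 maternal genes, gammaTub37C was higher (120.7 and 1.53 FPKM) and bcd and smg were lower (9.22 and 37.8, and 79.7 and 238.6). Their sums were 596.4 FPKM in zldZnF2 and 999.8 in w1118. Of 8 muscle genes on the 4 arms, Act57B (0.336 and 21.7 FPKM), Mlc2 and Mf were lower, with Mf listed at 0 in zldZnF2, and Act87E was higher (10.6 and 0.614). The muscle sums of 517.7 and 542.2 FPKM were nearly all Tm1. Eggshell, later nervous system, and hemocyte and fat body lists each summed to under 2 FPKM in both genotypes, and the testis list to 12.9 in zldZnF2 and 26.2 in w1118. The part of these differences in the values of the noncoding loci was not tested.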

How the data were processed

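RNA of 3 zldZnF2 and 3 w1118 samples was sequenced as 100-base single-end reads, which the authors trimmed, mapped to dm6 with STAR, assembled with Cufflinks and compared with Cuffdiff. The strand, counting and normalization options are not given in the sources used here. The table deposited by the authors holds a single FPKM for each genotype at a locus, pooled over replicates. They also deposited a p-value, a q-value, a test statistic and a log2 fold change (both handled as a score), all from their own comparison, and none was used. Of the columns of per-sample values 0 were left out, and depth per sample is unknown. Status was OK at all 234 members.

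Symbols were matched to the Ensembl release 115 annotation (17236 of 17298, all 234 members), which gave kinds, exons and overlaps. Coordinates are 1-based, on dm6. Promoter sequences and ZLD motifs were not analysed here. Python 3.11.15, NumPy 2.4.6 and pandas 2.3.3 were used.

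Members and lists were chosen with earlier results of these data known. The rule named the 10 most abundant members, the 12 largest and 12 smallest ratios, members listed at 0 in one genotype, and 3 on each side of the FPKM minimum. Other members, and those named for a small RNA, an antisense partner, a neighbour or a transposable element, were chosen after their values were seen. Alternatives were other pseudocounts, fold limits and FPKM minimums, centring, and leaving out overlapping, short or untested loci.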

Additional observations from a re-analysis of the deposited data

How the results depend on the processing

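The pooled values allow no leave-one-out value. No paired analysis was possible because the table holds 1 value per genotype, although the labels number the replicates alike. Counts depended on the scale. With a pseudocount of 0.1, 63 members were higher in zldZnF2 and 55 lower (14.6% and 10.7% of all loci). With none, among 231 members above 0 in both genotypes, 64 were higher and 56 lower, with a median log2 ratio of 0.29, and 14.9% of all loci were higher and 10.4% lower. A fold limit of 3 left 8 higher and 6 lower members (1.60% and 2.54% of all loci), and one of 1.5 gave 73 and 60 (20.96% and 17.9% of all loci). An FPKM minimum of 5 left 6 of 54 members higher (11.1%) and 7 lower (13.0%), against 8.98% and 6.88% of all loci. The members' median was then 0.040. A minimum of 1 in both genotypes left 6 of 125 members higher (4.8%) and 10 lower (8%), against 8.27% and 6.06% of all loci. Their median was 0.072. With no minimum, 31 of 987 CR loci above 0 were higher (3.14%) and 30 lower (3.04%), with a median of 0.018. These shares were below the 5.88% higher and 4.89% lower of all loci. The counts of 31 and 30 could not change with no minimum, so the shares fell only because more loci were counted. Without members that overlap another gene, 12 were higher and 9 lower (9.77% and 8.03% of all loci), and the median changed sign to -0.062. Apart from the shares with no minimum, the cause of these changes was not tested. Centring on the median of all loci and leaving out loci under 300 exonic bases left the counts of members higher and lower within 1.5 times of 31 and 30 and the median within 0.1. A minimum of 0.5, or none, could not change these counts, since 2-fold with 1 FPKM added needs a value of at least 1. All members had status OK. At the minimum of 5, 3 multi-block members were higher and 4 lower, and at that of 1 in both genotypes 4 and 5. Under the other alternatives more were higher than lower. Those alternatives, however, kept loci that passed the rule through 1 genotype only, and some could not change these counts.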
